A study of Mus musculus with 2 samples.

Results

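The genes described here were 37 mouse genes of microglia and other myeloid cells, out of 21474 protein-coding genes in the deposited tables. They were taken from a list of microglial identity, complement, lysosomal and pan-myeloid genes, and all 37 were found by matching gene identifiers to symbols. Of these, 17 were classed as homeostatic, meaning typical of resting microglia, 7 as activation genes, meaning genes that microglia raise in disease or injury, and 13 as neither. The classes were meant to follow general knowledge of microglia, but the members were chosen with earlier results of these data known.

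The data were RNA-seq profiles of 2 small pieces of layer 5 of the cerebral cortex, obtained by laser capture, in which a chosen area is dissected from a tissue section under a microscope. The mouse was a wild-type C57Bl6 male, entered as strain B6NCrl, 8 months of age. Each piece measured 8000 square microns, was recorded as 50 cells, and was amplified by a Smart-seq type protocol with spike-in RNA added. The pieces were numbered as biological replicates 1 and 2 under 1 donor. They form 1 group without a contrast between treatments or genotypes, and any spread is between areas of what the labels give as 1 animal. No treatment, transgene or Cre driver was named. Each side of the comparison made here, replicate 1 over replicate 2, was 1 library, so no p-value was computed.

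Microglia are the resident macrophages of the brain. Through receptors for nucleotides, lipids, antibodies and growth factors they survey the tissue, and they take up and digest debris in lysosomes. They also make C1q, the protein that starts the classical complement cascade and that tags synapses for removal in the developing brain. Their identity depends on the factor PU.1 and on signals through the receptors for CSF1 and TGF-beta. TREM2 and its adaptor DAP12, encoded by Tyrobp, drive the change to an activated state around plaques and dying cells.

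PU.1, an ETS factor, binds many myeloid genes at sites that hold the core GGAA. RefSeq promoter windows on GRCm38.p6 were therefore searched for GAGGAAGT on both strands. Each window ran from 250 bases before to 50 bases after a gene start. Of the 37 genes 28 had a window, 36 windows in all. GAGGAAGT was in 5 of the 36 windows (13.9%), against 1052 of all 32851 windows (3.20%). The shorter core GAGGAA, which every GAGGAAGT contains, was in 18 of the 36 windows (50.0%), against 28.3% of all windows. In all, 5 spellings of this motif were counted, the other spellings being GAGGAAG with 36.1% against 13.6%, AGGAAGT with 30.6% against 9.35% and GGAAGT with 41.7% against 23.8%. The 5 stretches with GAGGAAGT are shown because they hold the letters shared by these members, and the capitals mark the motif or, where it lies on the opposite strand, its reverse complement. They are written 5′ to 3′ on the strand of the gene, at chr3:95526738-95526814 (plus) for Ctss, chr3:106790121-106790189 (minus) for Cd53, chr4:136893056-136893155 (minus) for C1qc, chr5:104434952-104435051 (plus) for Spp1 and chr6:65144762-65144790 (minus) for Hpgds.
Ctss: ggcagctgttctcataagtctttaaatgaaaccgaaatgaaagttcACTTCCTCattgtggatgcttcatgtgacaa
Cd53: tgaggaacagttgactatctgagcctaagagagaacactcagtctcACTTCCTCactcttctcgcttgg
C1qc: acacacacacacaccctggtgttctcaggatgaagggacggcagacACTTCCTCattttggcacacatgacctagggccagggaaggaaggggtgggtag
Spp1: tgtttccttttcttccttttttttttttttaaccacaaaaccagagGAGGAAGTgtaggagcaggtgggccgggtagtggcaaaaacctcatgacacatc
Hpgds: gcttttaggtgGAGGAAGTggcctctggc
The motif began 2 bases before the RefSeq start in Ctss, 6 bases after it in Cd53, and 195, 113 and 49 bases before it in C1qc, Spp1 and Hpgds. Up to 29 bases of each stretch lie in an annotated first exon, except in Spp1, whose stretch holds 0 exon bases. In Hpgds these are all 29 bases of the stretch, motif included, although the motif lies before the RefSeq start. A match of letters is a description of the window and says nothing about binding in these cells.

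Replicate 1 held 26059097 expected counts and replicate 2 held 28276838. An expected count is an estimated number of reads, with reads that fit several features divided among them. Spike-ins took 7.19% of counts in replicate 1 and 7.94% in replicate 2, and mitochondrially encoded genes took 5.77% in replicate 1 and 5.08% in replicate 2. The 37 genes together took 31797 counts or 0.122% of replicate 1 (95% Clopper-Pearson interval 0.121 to 0.123%) and 15717 counts or 0.0556% of replicate 2 (0.0547 to 0.0565%). Spp1, Ctsd and Lgmn held much of these counts, and without them the members had 15832 counts (549 summed TPM) in replicate 1 and 4335 counts (168 summed TPM) in replicate 2. These intervals and those below cover counting error only, because reads without molecular identifiers are not independent molecules. A gene with 0 counts may still be present at up to 3 counts, which is 0.115 CPM (counts scaled by the library total) in replicate 1 and 0.106 CPM in replicate 2.

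Microglial RNA was present in both pieces and more abundant in replicate 1. The naming markers C1qb, Tyrobp and P2ry12 were at 70.5, 52.3 and 30.9 TPM in replicate 1 and at 19.6, 24.8 and 2.27 TPM in replicate 2, where TPM is a level corrected for transcript length and library size. Among all protein-coding genes C1qb ranked 1653 by TPM in replicate 1 and 4569 in replicate 2. In replicate 1, 34 of the 37 genes reached 1 TPM, and in replicate 2, 25 did. The number at 1 TPM or more in both libraries was 25 of 37, against 51.5% of all protein-coding genes. The median member was at 9.63 TPM in replicate 1 and at 2.27 TPM in replicate 2, a mean of 5.95 ± 5.20 (SD, n = 2). In pieces of tissue, fewer microglia and less RNA per microglial cell cannot be told apart.

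**Figure D1:**
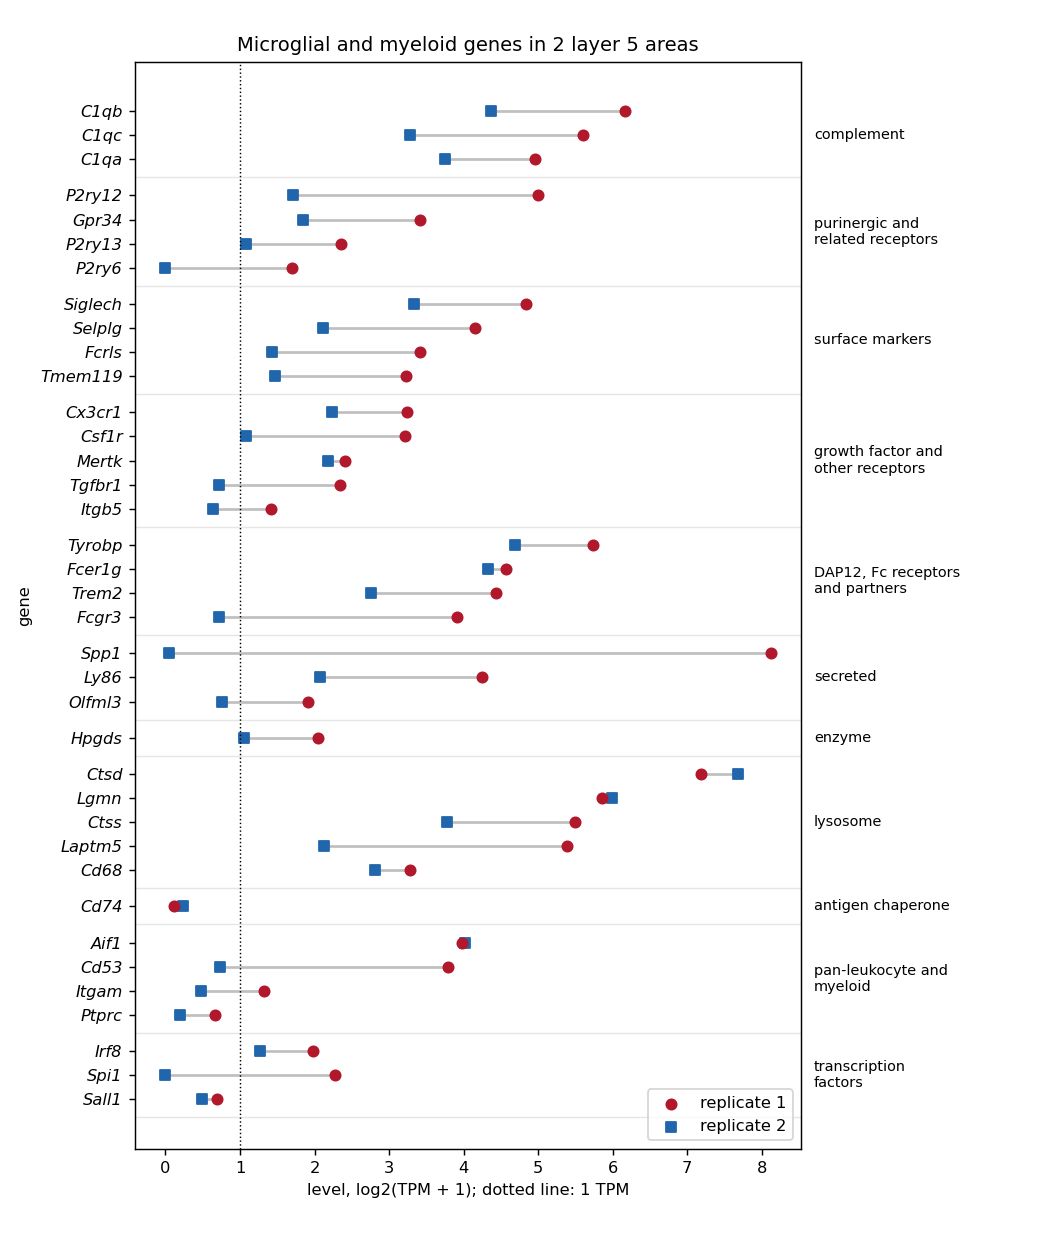
Level of each of the 37 genes as log2(TPM + 1) on the x axis, ordered by role, with a circle for replicate 1, a square for replicate 2 and a dotted line at 1 TPM. Circles lie to the right of squares for 33 genes, and the 4 exceptions are Ctsd, Lgmn, Aif1 and Cd74, of which Lgmn and Aif1 turn the other way with spike-in scaling.

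On the scale log2(TPM + 1), which understates the change of low genes, 24 of the 37 genes were more than 2-fold higher in replicate 1 and 0 were more than 2-fold higher in replicate 2. Over all protein-coding genes without a filter, 3.61% were past 2-fold in replicate 1 and 3.48% in replicate 2. With a minimum mean of 1 TPM, which 33 of the 37 passed and Sall1, Itgam, Ptprc and Cd74 did not, the shares over 11841 genes were 4.99% and 5.31%. Among genes with a mean of 1 to 50 TPM, the range that holds 30 of the 37, 23 were past 2-fold in replicate 1, against 6.1% of all 9570 genes there. Past 4-fold in replicate 1 lay 10 of the 37, namely Spp1, P2ry12, Laptm5, Fcgr3, Cd53, C1qc, Spi1, Ly86, Csf1r and Selplg, and past 4-fold in replicate 2 lay 0. Of all genes, 0.382% were past 4-fold in replicate 1 and 0.321% in replicate 2. The members just past 2-fold were Cx3cr1 and Tyrobp, with log2 ratios of 1.01 and 1.04, and those just short of it were Hpgds and Itgam, with 0.99 and 0.85.

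The median log2 ratio of replicate 1 over replicate 2 was 1.50 over the 37 genes, with quartiles of 0.72 and 2.04 and a range from -0.51 to 8.08. Over all protein-coding genes the median was 0.0, and over those with a mean of at least 1 TPM it was -0.05. Of the 37 genes 33 were higher in replicate 1 and 4 in replicate 2, and of those 4 Lgmn and Aif1 turned the other way with spike-in scaling. The sizes varied: the lowest ratio, of Ctsd, was below 0 and the highest, of Spp1, was the highest of all 21474 genes. The order of levels was only partly shared, with a Spearman rho between the libraries of 0.73 over the 37 genes and 0.86 without Spp1, against 0.94 over 12435 protein-coding genes at 1 TPM in either library. Genes within a library share its depth and its tissue, so these coefficients are given as descriptions.

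**Figure D2:**
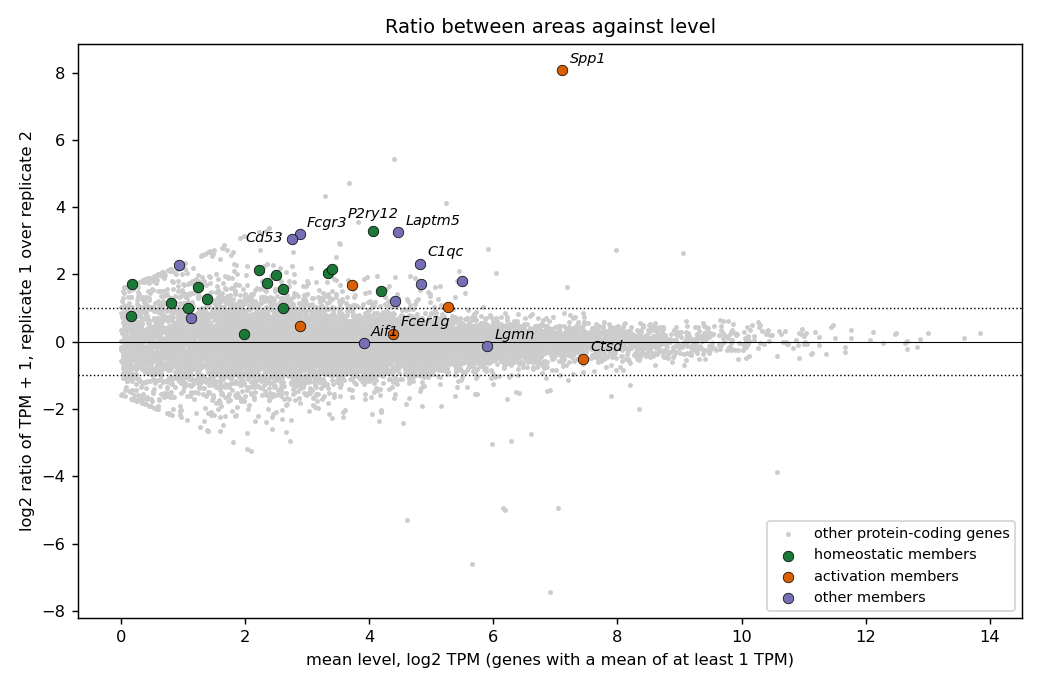
Log2 ratio of TPM + 1, replicate 1 over replicate 2, on the y axis against mean level as log2 TPM on the x axis, for genes with a mean of at least 1 TPM; grey points are other protein-coding genes, coloured points the 33 members that pass, and dotted lines mark 2-fold. The coloured points lie mostly above the upper line, where 4.99% of all genes lie, and Ctsd, Lgmn and Aif1 lie below 0, of which Lgmn and Aif1 lie above 0 with spike-in scaling.

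The complement genes C1qa, C1qb and C1qc encode the chains of C1q and lie together on chromosome 4, with gaps of 3.62 kb between C1qb and C1qc and 2.85 kb between C1qc and C1qa. C1qb had 1500 counts (70.5 TPM) in replicate 1 and 432 counts (19.6 TPM) in replicate 2, a log2 ratio of 1.79. C1qc had 1135 counts (47.8 TPM) in replicate 1 and 215 counts (8.75 TPM) in replicate 2, a log2 ratio of 2.32. C1qa had 607 counts (29.98 TPM) in replicate 1 and 261 counts (12.5 TPM) in replicate 2, a log2 ratio of 1.20. All 3 chains were therefore higher in replicate 1, by unequal amounts. Within a library the balance of the chains differed too, with C1qc at 1.59 times the TPM of C1qa in replicate 1 and 0.702 times in replicate 2. By counts per library total the ratio of C1qc was 5.73 (4.95 to 6.66) and that of C1qa 2.52 (2.18 to 2.93). These 95% intervals do not overlap, but they cover counting error only and not the spread between amplified libraries.

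The receptors for nucleotides and related ligands include the homeostatic gene with the highest ratio on the log2(TPM + 1) scale. P2ry12, the ADP receptor that guides microglial processes to injury and lies on chromosome 3 from 59216272 to 59262871, had 1349 counts (30.9 TPM) in replicate 1 and 101 counts (2.27 TPM) in replicate 2. Its log2 ratio was 3.29, and by counts it was 14.5-fold higher in replicate 1 (95% interval 11.8 to 17.9). P2ry13, another ADP receptor 5.39 kb from P2ry12, had 215 counts (4.12 TPM) in replicate 1 and 60 counts (1.11 TPM) in replicate 2, a count ratio of 3.89 (2.91 to 5.27). P2ry12 thus stood at 7.50 times the level of its neighbour in replicate 1 and 2.05 times in replicate 2. Gpr34, a receptor for lysophosphatidylserine, was at 9.63 TPM in replicate 1 and 2.60 TPM in replicate 2. P2ry6, a UDP receptor linked to phagocytosis, had 89 counts (2.25 TPM) in replicate 1 and 0 counts in replicate 2. Against a floor of 3 counts in replicate 2, P2ry6 was 32.2-fold higher in replicate 1. The 95% counting interval of its ratio begins lower, at 25.6. All 4 receptors of this kind were past 2-fold in replicate 1.

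The surface proteins used to mark microglia were all past 2-fold in replicate 1 as well, with log2 ratios from 1.50 to 2.04. Siglech, a sialic-acid-binding lectin, was at 27.5 TPM in replicate 1 and 9.08 TPM in replicate 2. Selplg, the ligand of P-selectin, was at 16.8 TPM in replicate 1 and 3.34 TPM in replicate 2. Fcrls, an Fc receptor-like protein, was at 9.62 TPM in replicate 1 and 1.69 TPM in replicate 2. The nucleotide and lipid receptors spanned more, from 1.28 to 3.29. Tmem119, a transmembrane protein that sets microglia apart from other brain macrophages, had 386 counts (8.37 TPM) in replicate 1 and 85 counts (1.78 TPM) in replicate 2, a count ratio of 4.93 (3.89 to 6.31). Tmem119 and Selplg are neighbours on chromosome 5, 18.02 kb apart, with log2 ratios of 1.75 and 2.04.

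Among the growth factor and other receptors, Csf1r, the receptor for CSF1 and IL-34 on which microglia depend to survive, had 818 counts (8.26 TPM) in replicate 1 and 114 counts (1.11 TPM) in replicate 2. Its log2 ratio of 2.13 was larger than that of Cx3cr1, the receptor for the neuronal chemokine fractalkine, which had 633 counts (8.46 TPM) in replicate 1 and 259 counts (3.69 TPM) in replicate 2 and a log2 ratio of 1.01. The level of Csf1r was 0.976 times that of Cx3cr1 in replicate 1 and 0.301 times in replicate 2. Csf1r shares 873 exon bases with Hmgxb3 on the opposite strand, whose counts were 415 in replicate 1 and 488 in replicate 2. Without a stated strand setting, reads of these genes cannot be told apart there. Tgfbr1, the type I TGF-beta receptor, had 477 counts (4.06 TPM) in replicate 1 and 71 counts (0.65 TPM) in replicate 2, a log2 ratio of 1.62. Mertk, a receptor kinase for the uptake of dying cells that astrocytes also use, was the most even homeostatic gene past 1 TPM, at 4.32 TPM in replicate 1 and 3.54 TPM in replicate 2. Itgb5, an integrin chain made by many cells, was at 1.66 TPM in replicate 1 and 0.56 TPM in replicate 2.

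The adaptors and their partner receptors did not move as a unit. Tyrobp, the adaptor DAP12 that carries signals of TREM2, had 523 counts (52.3 TPM) in replicate 1 and 257 counts (24.8 TPM) in replicate 2, a log2 ratio of 1.04. Trem2, the lipid receptor, had 438 counts (20.7 TPM) in replicate 1 and 145 counts (5.78 TPM) in replicate 2, a log2 ratio of 1.68. The level of Trem2 was 0.395 times that of its adaptor in replicate 1 and 0.233 times in replicate 2. Fcer1g, the adaptor chain of Fc receptors, was nearly even, with 281 counts (22.7 TPM) in replicate 1 and 244 counts (19.1 TPM) in replicate 2, a count ratio of 1.25 (1.05 to 1.49). Fcgr3, a low-affinity receptor for IgG that pairs with this chain, had 376 counts (14.1 TPM) in replicate 1 and 17.9 counts (0.64 TPM) in replicate 2, a log2 ratio of 3.20. Fcgr3 and Fcer1g lie 165 kb apart on chromosome 1. Fcgr3 resembles Fcgr2b in sequence, and its estimated counts carried a posterior SD of 0.8 in replicate 1 and 1.6 in replicate 2.

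Of the secreted factors and the enzyme, Spp1 had the greatest difference. Spp1, the osteopontin gene, whose product is a secreted phosphoprotein made by activated microglia and also by some neurons, had 7813 counts (277 TPM) in replicate 1 and 1 count (0.03 TPM) in replicate 2. With 1 count on that side, the count ratio of 8478 has an interval from 1521 to 334900. It ranked first of the 37 genes by TPM in replicate 1 and 35 in replicate 2. Ly86, the secreted partner MD-1 of a Toll-like receptor relative, had 347 counts (17.96 TPM) in replicate 1 and 64 counts (3.20 TPM) in replicate 2, a log2 ratio of 2.17. Olfml3, an olfactomedin-like matrix protein, was at 2.78 TPM in replicate 1 and 0.69 TPM in replicate 2, a log2 ratio of 1.16. Hpgds, which makes prostaglandin D2, was at 3.13 TPM in replicate 1 and 1.08 TPM in replicate 2, just short of 2-fold on this scale and 2.41-fold (1.85 to 3.17) by counts.

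The lysosomal genes split. Ctsd, an aspartic protease found in lysosomes of all cells, had 5985 counts (144 TPM) in replicate 1 and 8930 counts (205 TPM) in replicate 2, so it was 1.38-fold higher in replicate 2 by counts (1.33 to 1.42). Lgmn, an asparaginyl protease, was nearly even, with 2167 counts (56.9 TPM) in replicate 1 and 2451 counts (62.3 TPM) in replicate 2. Ctss, a cysteine protease made mainly by myeloid cells, had 1196 counts (44.3 TPM) in replicate 1 and 356 counts (12.7 TPM) in replicate 2, a log2 ratio of 1.72. The ratio of Ctss to Ctsd was 0.307 in replicate 1 and 0.0621 in replicate 2. Laptm5, a lysosomal membrane protein of blood-derived lineages, had 827 counts (40.7 TPM) in replicate 1 and 126 counts (3.37 TPM) in replicate 2. It was 12.1-fold higher in replicate 1 by TPM and 7.12-fold by counts (5.90 to 8.66), since the effective length given for it was 944 bases in replicate 1 and 1680 in replicate 2. Cd68, a lysosomal glycoprotein used to mark phagocytic cells, had 173 counts (8.69 TPM) in replicate 1 and 78 counts (6.04 TPM) in replicate 2, a log2 ratio of 0.46. By counts Cd68 was 2.41-fold higher in replicate 1 (1.83 to 3.19). Its effective length was 925 bases in replicate 1 and 581 bases in replicate 2. Cd74, the invariant chain that accompanies MHC class II molecules, was near 0, with 2 counts in replicate 1 and 5 in replicate 2, so no difference was detectable at this depth.

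The general leukocyte genes ranged from even to far apart. Aif1, which encodes the actin-binding protein IBA1 and is the usual histological mark of microglia, had 199 counts (14.7 TPM) in replicate 1 and 220 counts (15.3 TPM) in replicate 2, a count ratio of 0.982 (0.806 to 1.19). The level of Aif1 was 0.477 times that of P2ry12 in replicate 1 and 6.72 times in replicate 2. Cd53, a tetraspanin of leukocytes, had 453 counts (12.8 TPM) in replicate 1 and 24 counts (0.66 TPM) in replicate 2, a count ratio of 20.5 (13.6 to 32.3). Itgam, the integrin chain CD11b, had 137 counts (1.50 TPM) in replicate 1 and 3 counts (0.39 TPM) in replicate 2. Its count ratio was 49.6 (16.6 to 243), while by TPM it was 3.85-fold higher, with an effective length of 4231 bases in replicate 1 and 349 bases in replicate 2. Ptprc, the phosphatase CD45, had 46 counts (0.58 TPM) in replicate 1 and 11 counts (0.15 TPM) in replicate 2, a count ratio of 4.54 (2.32 to 9.71).

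The transcription factors were low. Spi1, which encodes PU.1, had 137 counts (3.82 TPM) in replicate 1 and 0 counts in replicate 2. Against a floor of 3 counts in replicate 2, Spi1 was 49.6-fold higher in replicate 1. The 95% counting interval of its ratio begins lower, at 39.8. Irf8, a partner of PU.1, had 156 counts (2.94 TPM) in replicate 1 and 44 counts (1.40 TPM) in replicate 2, a count ratio of 3.85 (2.74 to 5.51). Sall1, which is restricted to microglia among macrophages, had 69 counts (0.62 TPM) in replicate 1 and 47 counts (0.41 TPM) in replicate 2. By counts per library total, 27 of the 37 genes had a 95% interval wholly above 2-fold in replicate 1, against 6.64% of all 21474 protein-coding genes.

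**Figure D3:**
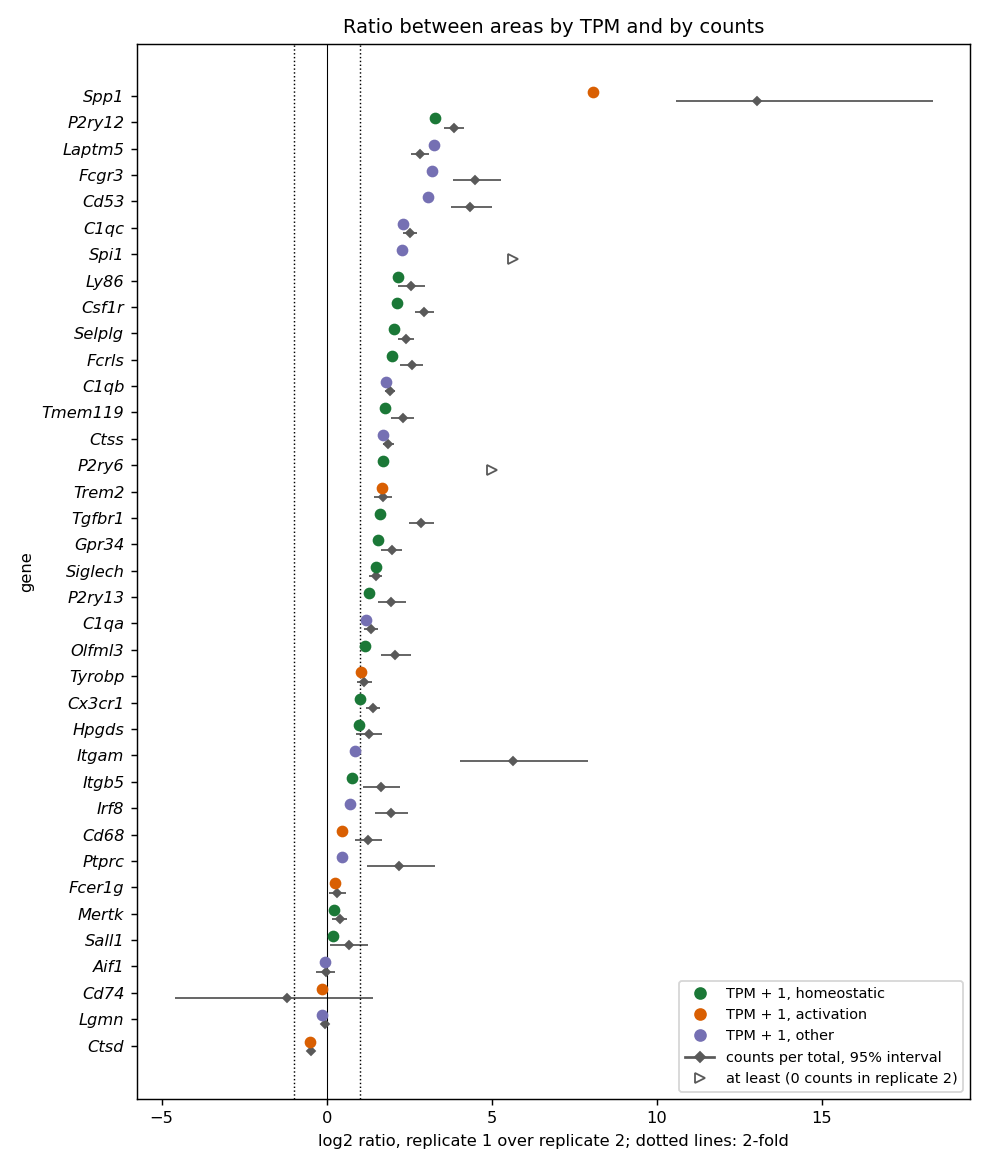
Log2 ratio of replicate 1 over replicate 2 for each of the 37 genes, ordered by the ratio of TPM + 1 (coloured circles by class). Diamonds with bars give the ratio of counts per library total with its 95% counting interval. Open triangles give the ratio against a floor of 3 counts for genes with 0 counts in replicate 2. Diamonds lie to the right of circles for low genes such as Itgam, Fcgr3 and Cd53, and Spp1 stands apart from all others.

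Homeostatic genes differed more between the areas than activation genes when summarised by the median. All 17 homeostatic genes were higher in replicate 1, 13 of them past 2-fold, with a median log2 ratio of 1.56 and a range from 0.20 to 3.29. Of the 7 activation genes 3 were past 2-fold in replicate 1, namely Spp1, Trem2 and Tyrobp, with a median of 0.46 over the 7. That median is the TPM ratio of Cd68, which was 2.41-fold higher in replicate 1 by counts. The 13 other genes had 8 past 2-fold and a median of 1.72. The homeostatic median exceeded the activation median by 1.10 over all members and by 0.84 over those with a mean of at least 1 TPM. With CPM, the medians of the members with a mean of at least 1 TPM were 1.85 for homeostatic and 1.04 for activation genes. Also over members with a mean of at least 1 TPM, means in place of medians turned the difference to -0.26, with 1.57 for homeostatic and 1.83 for activation genes. Without Spp1 the medians of that set differed by 1.13. Without the 6 members that other brain cells are known to make (Itgb5, Tgfbr1, Mertk, Spp1, Ctsd and Lgmn), the medians without a filter were 1.63 for homeostatic and 0.46 for activation genes. With the minimum mean of 1 TPM they differed by 0.95.

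The transcripts behind the gene levels also differed between the areas for some members. At 10 TPM or more in both libraries, 5 members had several transcripts listed, and 4 of them, Fcer1g, Ctsd, Ctss and Lgmn, had the same leading transcript in both. Ctsd-202, for example, made up 59.4% of the gene's TPM in replicate 1 and 70.6% in replicate 2. Aif1 was the exception: Aif1-203 held 69.6% in replicate 1 and 0% in replicate 2, and Aif1-201 held 0% in replicate 1 and 74.0% in replicate 2, from 164 and 188 counts. The equal total of Aif1 thus came from different coding transcripts in the deposited estimates, while a retained-intron transcript, Aif1-205, held 30.5% in replicate 1 and 26.0% in replicate 2.

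At any level, 28 members had several transcripts listed. Of these 17 had the same leading transcript in both libraries, among them P2ry12, Csf1r, Gpr34, Tmem119, Siglech and Spp1, 10 had a different one, and 1, Spi1, had 0 counts in replicate 2. The share of all genes whose leading transcript differed was not computed. The 10 are therefore a description and cannot be called a trait of the members. Of the 10, the genes below were picked after their values were seen, because the leader differed. Cx3cr1-201 made up 73.2% in replicate 1 and 17.3% in replicate 2, and Cx3cr1-202 the remaining 26.8% and 82.7%. Trem2-201 made up 72.7% in replicate 1 and 43.4% in replicate 2, where Trem2-202 led with 52.4%. Cd68-203, which has no coding sequence in the annotation, made up 33.4% in replicate 1 and 89.0% in replicate 2, so the coding transcript Cd68-201 was at 5.79 TPM in replicate 1 and 0.66 TPM in replicate 2. The difference of the coding Cd68 transcript was thus larger than that of the gene. Irf8-201 held 87.4% in replicate 1 and 0% in replicate 2, where Irf8-205 and the retained-intron transcript Irf8-202 held 50.3% and 43.4% of a gene with 44 counts. Laptm5-210 held 47.4% in replicate 1 and 25.5% in replicate 2, and the longer Laptm5-207 held 10.6% and 47.7%. Such shares are model estimates from short reads and have no replicate check. In the GENCODE M21 annotation Spp1, Ctsd and Itgam also share 309, 808 and 3450 exon bases with predicted genes on the same strand, and Cx3cr1 and P2ry12 share 78 and 9 exon bases with genes on the opposite strand, so some of their reads are of uncertain origin. For Itgam, 128.9 of the 137 counts in replicate 1 were assigned to a transcript that M21 does not list.

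**Figure D4:**
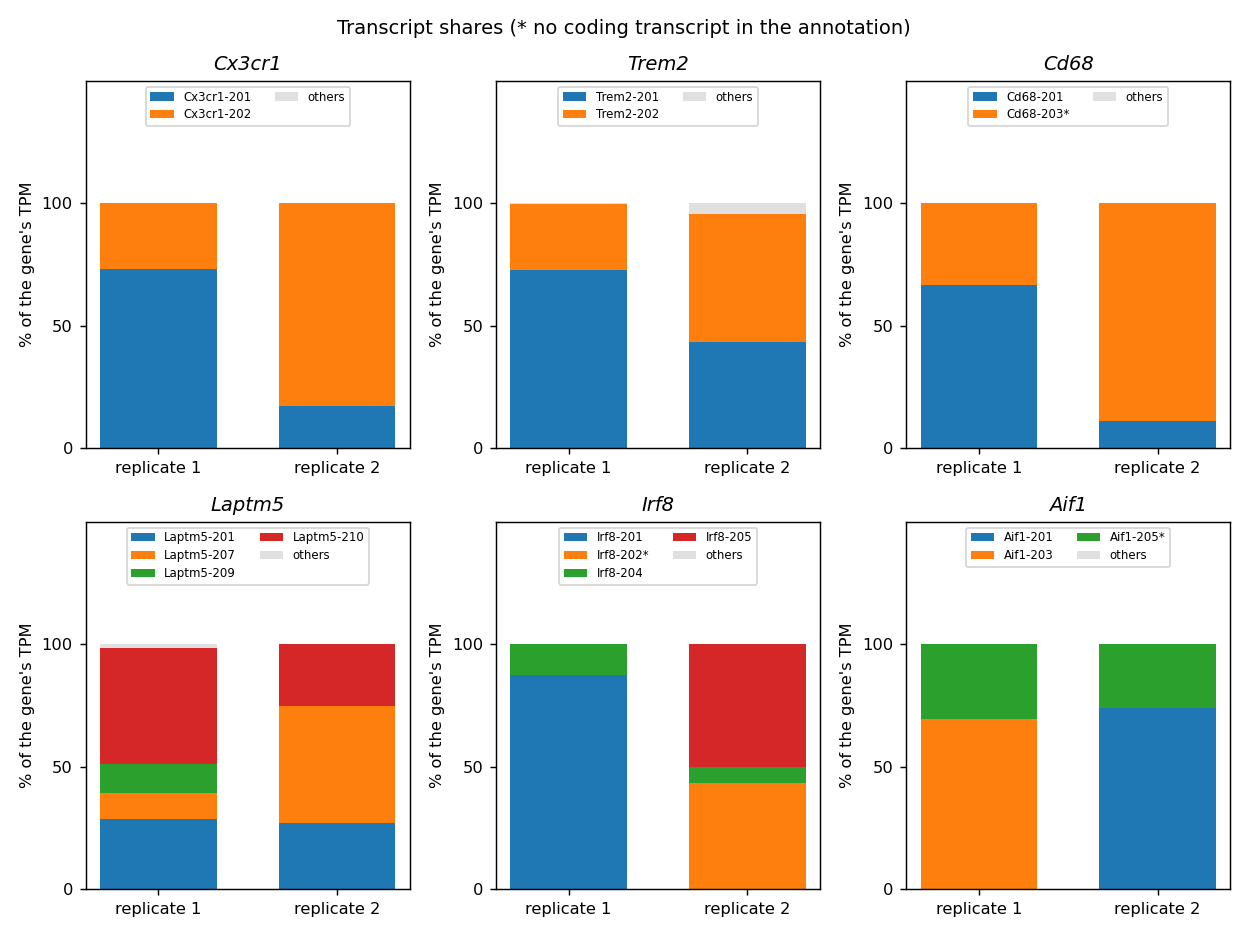
Percent of each gene's TPM assigned to its transcripts, as stacked bars from 0 to 100% for replicate 1 and replicate 2, in 6 of the 10 genes whose leading transcript differed; an asterisk marks transcripts without a coding sequence in the annotation. The leading transcript differs between the bars in every gene shown, for example Aif1-203 in replicate 1 and Aif1-201 in replicate 2.

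Most marker genes of border macrophages and of blood-derived cells had 0 counts in both areas. Of 8 markers of macrophages at the brain's borders and vessels, 6 (Mrc1, Lyve1, Pf4, F13a1, Ms4a7 and Cbr2) had 0 counts in both libraries, and Cd163 had 18 counts in replicate 1 against 0 in replicate 2. The list summed to 2.38 TPM in replicate 1 and 2.48 TPM in replicate 2, nearly all from Stab1. Of 5 monocyte markers Ccr2, Plac8 and Chil3 had 0 counts in both, and the list summed to 0.37 TPM in replicate 1 and 4.39 TPM in replicate 2, with S100a4 making up all of the sum in replicate 2. Of 6 neutrophil markers 5 had 0 counts in both and Mmp9 had 71 counts in replicate 1 and 2 in replicate 2. All 6 T and NK cell markers were at 0 counts in both libraries, and of 4 B cell markers only Ms4a1 had a count, 1 in replicate 1. In replicate 1, no marker on these 5 lists exceeded the 71 counts of Mmp9.

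Of the markers of resident brain cells, most of those of oligodendrocytes and endothelium were past 2-fold between the areas. The 7 oligodendrocyte genes were all lower in replicate 1, 5 of them past 2-fold, with a median log2 ratio of -1.45 and a summed level of 555 TPM in replicate 1 and 946 TPM in replicate 2. Among them Mobp, a myelin protein, was at 83.9 TPM in replicate 1 and 130 TPM in replicate 2. Of 5 endothelial genes 3 were past 2-fold in replicate 1, with a median of 1.04 and sums of 113 TPM in replicate 1 and 51.3 TPM in replicate 2. Flt1, a VEGF receptor of vessels, was at 8.04 TPM in replicate 1 and 2.70 TPM in replicate 2, while Pecam1 was at 1.28 TPM in replicate 1 and 2.32 TPM in replicate 2. The 5 astrocyte genes had 0 past 2-fold either way and a median of -0.03, with sums of 615 TPM in replicate 1 and 714 TPM in replicate 2. The 6 layer 5 neuron genes had a median of -0.30 with Rbp4 past 2-fold in replicate 2, and the 4 general neuron genes a median of -0.36 with 0 past 2-fold. Their part in the difference of the microglial genes was not tested.

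**Figure D5:**
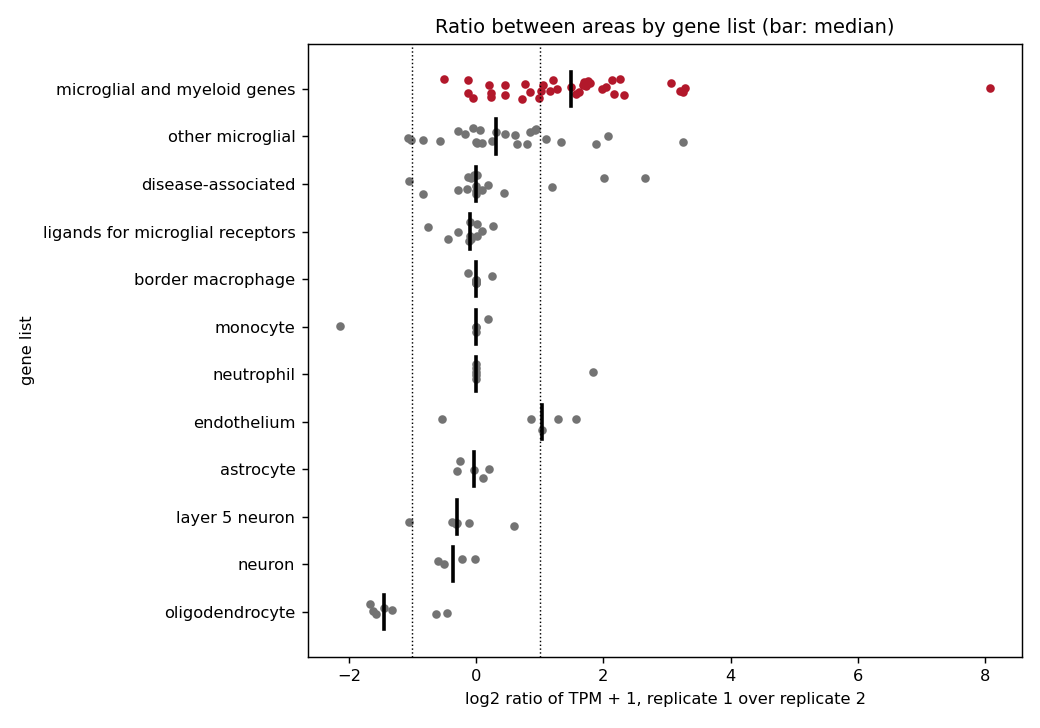
Log2 ratio of TPM + 1, replicate 1 over replicate 2, on the x axis for each gene (points) of the microglial and myeloid set and of 11 other lists, with a bar at each list's median and dotted lines at 2-fold. The set's median of 1.50 is the highest, the endothelial median is 1.04 and the oligodendrocyte median is -1.45.

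Genes around the set showed how far the difference reached. Of 25 further genes reported in microglia, 5 were past 2-fold in replicate 1 and 2 in replicate 2, with a median log2 ratio of 0.31. The most abundant of them were lysosomal or broadly expressed and nearly even. Cst3, a secreted inhibitor of cysteine proteases, was at 2281 TPM in replicate 1 and 1925 TPM in replicate 2. Ctsb, a cysteine protease, was at 258 TPM in replicate 1 and 315 TPM in replicate 2. Of 17 genes of disease-associated microglia, 3 were past 2-fold in replicate 1 and 1 in replicate 2, with a median of 0.0, while Itgax, Clec7a and Ccl6 had 0 counts in both. Apoe, which astrocytes also make in quantity, was at 587 TPM in replicate 1 and 645 TPM in replicate 2. The 3 genes past 2-fold in replicate 1, named after their values were seen, were Lyz2, Lpl and Gpnmb. Lyz2, the lysozyme of myeloid cells, had 169 counts in replicate 1 against 6 in replicate 2. Lpl, a lipase, had 212 counts in replicate 1 and Gpnmb, a glycoprotein, had 103, and both had 0 counts in replicate 2.

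Few of the signalling partners and ligands of the members were past 2-fold. Of 15 genes of the DAP12 and Syk pathway, 1 was past 2-fold in replicate 1 and 1 in replicate 2. Their median was 0.21, with 11 of the 15 higher in replicate 1, and 5 of the 15 had a mean of at least 1 TPM. Sirpa, an inhibitory receptor that neurons also carry, was at 58.5 TPM in replicate 1 and 68.4 TPM in replicate 2. The kinase Syk was at 0.48 TPM in replicate 1 and 0.45 TPM in replicate 2. The gene past 2-fold in replicate 2 was Hcst, the adaptor DAP10, with 6 counts in replicate 1 and 75 in replicate 2. Of 11 ligands for microglial receptors, which other cells make, 0 were past 2-fold in either library and the median was -0.09. Cx3cl1, the fractalkine bound by Cx3cr1, was at 69.2 TPM in replicate 1 and 118 TPM in replicate 2. Il34, a ligand of Csf1r made by neurons, was at 45.3 TPM in replicate 1 and 44.7 TPM in replicate 2. Cd47, the ligand of Sirpa, was at 143 TPM in replicate 1 and 153 TPM in replicate 2. The log2 ratios of the ligands ran from -0.76, for Cx3cl1, to 0.27, for Gas6, a ligand of Mertk.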

How the data were processed

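The deposited gene and transcript tables, 1 pair per library, gave for each feature an expected count, TPM scaled by the authors to a fixed sum per library, posterior mean and SD estimates, and the percent that a transcript contributes to its gene's TPM. The deposited posterior SD of a count, treated as a score, is printed for Fcgr3, and the posterior mean TPM served as an alternative unit. Assembly mm10 and annotation release M4 were named in text files deposited with the tables; program, aligner and strand setting: not given in the sources used here. Symbols and coordinates came from GENCODE M21 on GRCm38, and promoter windows from RefSeq on GRCm38.p6. Another 26248 features named by a number and no gene held 20.3 counts in replicate 1 and 5 in replicate 2 and stayed out of library sizes.

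The members and lists were chosen with earlier results of these data known. All 37 members were named, with up to 4 most abundant and up to 2 genes under 1 TPM of each other list; all other genes named, among them Pecam1, Gas6 and marker genes at or near 0 beyond that number, were chosen after their values were seen. Some genes are not reported here. Level ratios were log2((TPM + 1)/(TPM + 1)); count ratios used rounded expected counts divided by the library total, with 95% Clopper-Pearson intervals. The libraries were checked for being copies: over the 14131 features with 50 or more summed counts, the chi-square was 69.6 per degree of freedom, so both were kept as separate libraries. The fold procedure was tested on simulated counts with counting error only, with folds put into genes with a mean of at least 5 TPM. That simulation does not cover lower genes or the spread between amplified libraries. Alternatives changed the pseudocount (0.1), unit (CPM, posterior mean TPM), scaling (TMM and RLE factors of rounded counts in edgeR 4.0.16 under R 4.3.3, spike-ins, median gene), filters and members; counts per total without a pseudocount, and levels without genes of other cells, were added after seeing the data. Remaining work ran in Python 3.11.15 with matplotlib 3.10.9, scipy 1.17.1, pandas 2.3.3 and numpy 2.4.6.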

Additional observations from a re-analysis of the deposited data

How the results depend on the processing

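No paired analysis was possible because there is 1 group. Leaving out a replicate could not be applied to ratios, since each side is 1 library. Across all alternatives 18 (of 23, at a mean minimum of 5 TPM) to 28 (of 33) members were past 2-fold in replicate 1 (24 of 33 as reported) and 0 in replicate 2, against 2.62% to 8.09% of all genes in replicate 1. The median log2 ratio of the 33 members with a mean of at least 1 TPM was 1.62, and it was 1.84 with pseudocount 0.1, 1.72 with CPM and with TMM factors, 1.85 with spike-in scaling, 1.50 without a filter, 1.72 with a mean minimum of 5 TPM and 1.96 by counts per total. Spike-in scaling moved the median of all genes to 0.15, and only under it did Aif1 (0.10) and Lgmn (0.08) lie above 0. The homeostatic minus activation difference of 0.84 was 1.22 with pseudocount 0.1, 1.10 without a filter, 1.11 with a mean minimum of 5 TPM, 1.13 without Spp1, 0.95 without genes of other cells and 0.99 by counts per total, and it reversed to -0.26 with means, which Spp1 dominates among 6 activation genes. Members at 1 TPM in both libraries numbered 25, but 12 at 5 TPM, and 25 to 34 with a replicate left out; the median level then ran from 2.27 to 9.63 TPM. At 20 TPM only 2 genes qualified for the comparison of transcripts, and 2 of 2 kept the leading transcript. Itgb5, Hpgds, Irf8, Itgam, Cd68 and Ptprc crossed 2-fold under at least 1 other scale; the cause was not tested.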

Other observations

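Further immune genes were mostly near the limit of detection. Of 15 other complement genes 1 was past 2-fold in replicate 1 and 3 in replicate 2, with a median log2 ratio of 0.0, and C3, the central component on which the cascade acts after C1q, had 0 counts in both libraries. The regulator Cd55 was at 4.56 TPM in replicate 1 against 11.6 TPM in replicate 2. Cfp, which encodes properdin, had 19 counts in replicate 1 and 148 in replicate 2.

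Of 12 genes of the early microglial response to injury or dissection, 1 was past 2-fold in replicate 1 and 2 in replicate 2, and Tnf, Ccl2, Ccl3, Cxcl10 and Il6 had 0 counts in both. Il1b had 1 count in replicate 1 and 67 in replicate 2, Cd83 had 160 in replicate 1 and 444 in replicate 2, and Il1a, named after its value was seen, had 70.7 in replicate 1 and 0 in replicate 2. Of 6 MHC class II genes 1 was past 2-fold in each library, with a median of 0.57, and H2-DMa, a peptide-loading subunit, had 15.7 TPM in replicate 1 against 9.88 TPM in replicate 2.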
